A study of Mus musculus with 18 samples.

Results

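Cultured mouse lung endothelial cells (lung ECs, the native ECs of the series) were compared with lung fibroblasts at day 7, with 3 bulk mRNA libraries per group. These 6 libraries are among 18 in the series, whose other groups are lung iECs and fibroblasts, native ECs and iECs of the heart. The comparison covers the 14864 of 35727 genes in the deposited table that passed a filter on low counts. The lung EC libraries carry the cell type label endothelial. The titles of the fibroblast libraries call them control cells. The iECs, titled SEG, are not compared here, but their libraries were part of the filter, the scaling and the fit. Per the labels every group was kept in EGM2, an endothelial growth medium, so the fibroblasts too had grown in it. Strain, sex, age, the way the cells were isolated and the passage are not given in the sources used here, and neither is whether replicates came from separate animals or cultures. The p-values below therefore set differences against a replicate spread that may be technical only. That spread was estimated over all 18 libraries, not from the 6 compared libraries alone. In bulk RNA, fewer cells of a type and less RNA per cell cannot be told apart.

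Endothelial cells line blood and lymphatic vessels. They hold together through VE-cadherin and claudin-5, respond to VEGF and angiopoietins, and control clotting and the passage of leukocytes, and their identity rests on ETS, SoxF and GATA family transcription factors. Lung fibroblasts make the collagens, elastin and proteoglycans of the alveolar and airway walls and respond to PDGF. In the lung, capillary endothelium is divided into general capillary cells and aerocytes, the thin cells of gas exchange, beside arterial, venous and lymphatic endothelium.

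Totals ran from 17747632 to 23775372 estimated counts over the 18 libraries. Levels are given in CPM of the library total. A change is the log2 change of lung ECs against lung fibroblasts from edgeR's quasi-likelihood test with TMM scaling, given ± SE. A gene is called, and is said to have risen or fallen, at a Benjamini-Hochberg adjusted p under 0.05 over all tested genes. Lung EC replicate 3 and lung fibroblast replicate 1 each stood apart from the other libraries of their group. The squared differences of counts, relative to counting error, were 46.3 and 68.7 between EC replicate 3 and the other EC libraries, against 9.98 between those 2, and 49.6 and 36.0 between fibroblast replicate 1 and the others, against 7.07. The mean distance between an EC and a fibroblast library was nevertheless larger, at 1.09 on the log2 scale (root mean square over genes), than the distance within the ECs (0.376) or the fibroblasts (0.335).

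Defining markers were high in the cell type that the label gives, with 1 exception. Cdh5, which encodes VE-cadherin, stood at 1069.8, 1053 and 1067 CPM in lung EC replicates 1, 2 and 3, and at 2.20, 3.81 and 3.32 CPM in the fibroblasts. Its log2 change was 8.29 ± 0.159, adjusted p = 2.50e-17. Pecam1, the junction molecule CD31, stood at 614, 563 and 619 CPM against 1.69, 2.26 and 1.68 CPM. Every EC library was thus far above every fibroblast library for both junction genes. The orphan receptor gene Tie1 read 239, 251 and 281 CPM against 0.451, 0.611 and 0.708 CPM, a log2 change of 8.61 ± 0.149. Kdr, the main signalling receptor of VEGF-A, read 74.7, 73.3 and 102 CPM against 6.03, 9.54 and 8.67 CPM, a smaller log2 change of 3.23 ± 0.137. The ETS factor gene Erg read 92.7, 82.8 and 98.1 CPM against 0.169, 1.03 and 0.398 CPM, a log2 change of 7.24 ± 0.253. None of these 5 endothelial genes overlapped between the groups, which was also so for 59% of all tested genes.

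Of the 5 fibroblast markers, 4 fell and 1 did not. Col1a1, the larger chain gene of type I collagen, stood at 2482, 2752 and 3557 CPM in the ECs and at 12606, 15062 and 15015 CPM in the fibroblasts, and Col1a2 at 2145, 2336 and 2812 CPM against 11592, 13758 and 13184 CPM. Their log2 changes were −2.40 ± 0.119 and −2.52 ± 0.105. Col3a1 fell more, from 8858, 11288 and 10305 CPM in the fibroblasts to 376, 386 and 620.03 CPM in the ECs (log2 change −4.59 ± 0.207, adjusted p = 1.22e-11). The PDGF receptor gene Pdgfra fell from 656, 1005 and 904 CPM to 116, 103 and 123 CPM. Dcn, which encodes the small proteoglycan decorin, overlapped: it read 650.2, 867 and 338 CPM in the ECs and 462, 545 and 443 CPM in the fibroblasts (log2 change 0.25 ± 0.329, adjusted p = 0.535). Collagen transcripts were thus lower, not absent, in the ECs: the mean Col1a1 level there was 20.6% of the fibroblast mean.

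**Figure D1:**
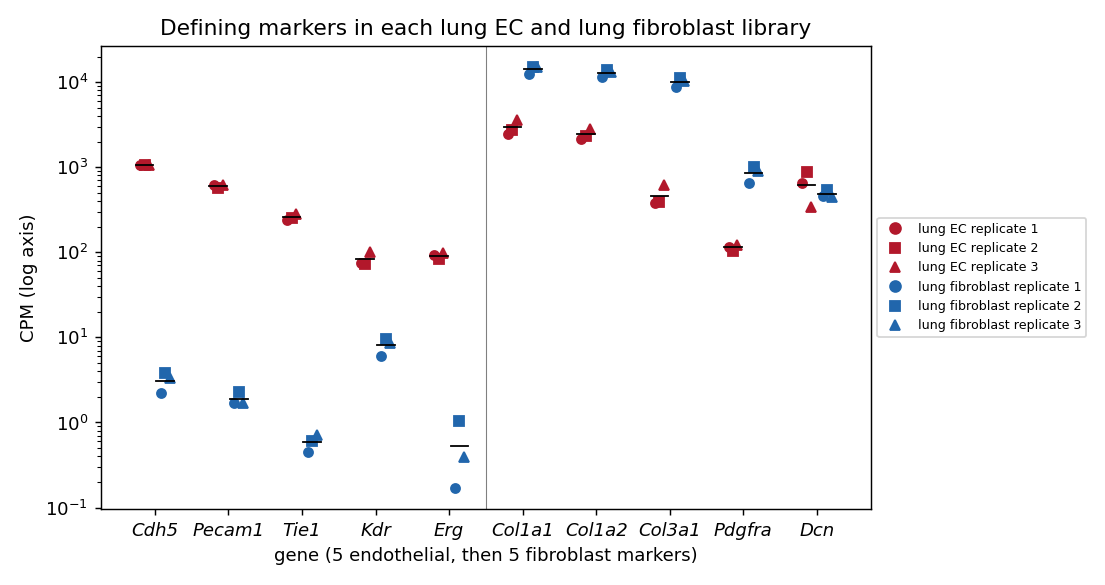
Level of 5 endothelial and 5 fibroblast markers in each of the 6 libraries, in CPM on a log axis, with 1 point per library and the mean of each group. The 2 groups stand apart in the 5 endothelial genes and, the other way round, in Col1a1, Col1a2, Col3a1 and Pdgfra, and the points of Dcn mix.

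Over all tested genes 58.1% were called, 4358 higher in lung ECs (29.3%) and 4271 lower (28.7%), and the median log2 change was 0.0031. A list whose shares lie near these does not stand apart from all genes by its counts. Large changes were more often rises. Of the called genes, 1994 rose and 1588 fell by at least 1 on the log2 scale, 724 rose and 305 fell by at least 3, and 248 rose and 72 fell by at least 5. Measured against a log2 change of 1 (edgeR's glmTreat), 1428 genes were higher (9.61%) and 984 lower (6.62%). A mean of at least 10 CPM in the ECs with less than 0.5 CPM in the fibroblasts was found for 70 genes, and the reverse for 9.

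Among the genes with the largest rises several are known in endothelium. Selp, the P-selectin that captures leukocytes, read 966, 1041 and 373 CPM against 0.958, 1.46 and 1.02 CPM (log2 change 9.32 ± 0.801). Reln, a secreted glycoprotein made by lymphatic endothelium, read 185, 166 and 259 CPM against 0.394, 0.282 and 0.133 CPM (log2 change 9.45 ± 0.263). Myct1, Mmrn2 (the matrix ligand of CD93) and Emcn (the sialomucin endomucin) rose by 9.20, 9.17 and 8.87 on the log2 scale. Prnd, a prion-like protein gene, rose by 9.63 ± 0.547 from 0.153 to 144 CPM. Cldn4, a claudin of epithelia, rose by 8.95 ± 0.330, from 0.113, 0.0470 and 0.177 CPM to 63.8, 58.1 and 70.0 CPM. Others had no count in the fibroblasts, so that the fold is a lower bound, computed as if the 3 fibroblast libraries had held 3 counts together. Crisp1, a secreted protein best known from the epididymis, was at least 1156-fold higher, Gimap5, a GTPase of lymphocytes and endothelium, at least 329-fold, and Car8 at least 214-fold. Psg22 had so few fibroblast counts that the pooled ratio of 1499 has a 95% counting interval of 269 to 59239, which covers counting error only.

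Among the largest falls, Adamts15, a protease of versican and aggrecan, read 158, 264 and 215 CPM in the fibroblasts and 0.205, 0.210 and 0.463 CPM in the ECs (log2 change −9.59 ± 0.442, adjusted p = 1.56e-10). Dio3, which inactivates thyroid hormone, read 27.2, 22.9 and 29.9 CPM in the fibroblasts and 0.102, 0 and 0.0926 CPM in the ECs, where it had 4 counts in all. Dpep1, a dipeptidase, the lipid transporter gene Abca8a, and the microfibril gene Mfap4 had log2 changes of −7.97 ± 0.199, −7.80 ± 0.455 and −7.47 ± 0.325. Their fibroblast means were 444, 108 and 86.2 CPM. Acss3, Calml4, Podn (the small proteoglycan podocan), Serpina3m, Cygb (cytoglobin), Gdpd2 and Fxyd1 complete the 12 largest falls, with log2 changes from −7.27 for Acss3 to −6.62 for Fxyd1. In the fibroblasts Podn read 109.6, 171 and 147 CPM and in the ECs 1.08, 0.505 and 1.95 CPM.

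**Figure D2:**
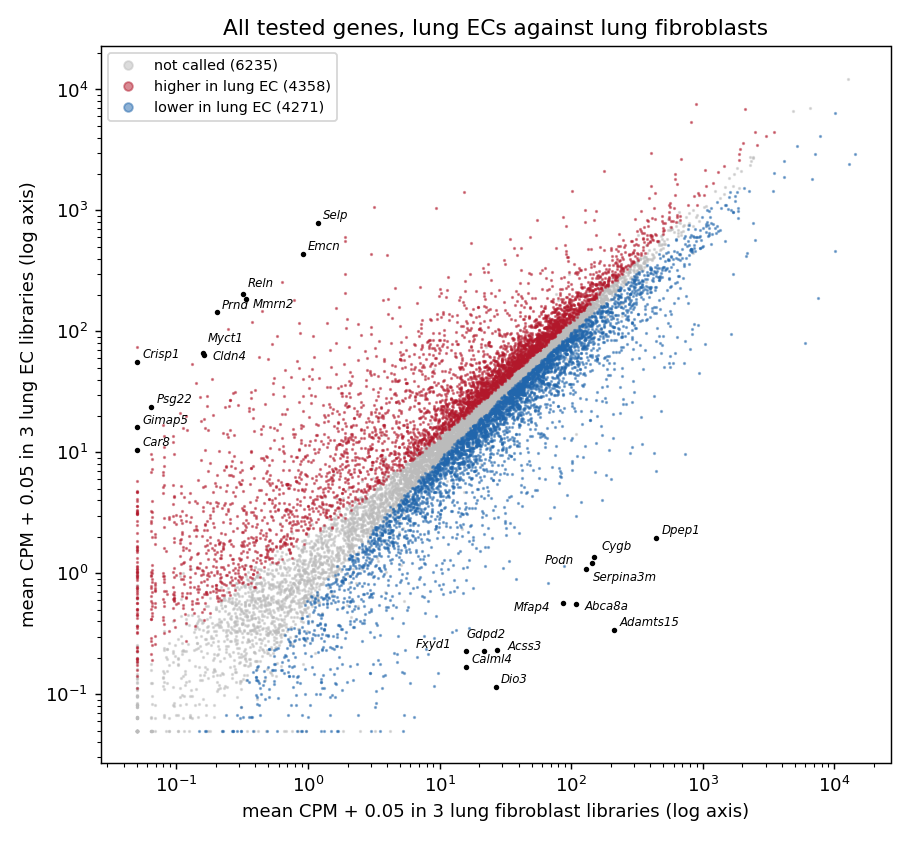
Mean level of the 14864 tested genes in the 3 lung EC libraries (y axis) against that in the 3 lung fibroblast libraries (x axis), in CPM plus 0.05 on log axes, coloured by call and direction, with genes among the largest changes in each direction named. More points lie far above the diagonal than far below it, as the 248 rises and 72 falls of at least 5 on the log2 scale show.

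The most abundant transcripts of the 2 cell types overlapped in part. Fibronectin, Fn1, was the most abundant nuclear gene of the ECs, at 12654, 11417 and 12884 CPM, and read 8942, 15482 and 13675 CPM in the fibroblasts (log2 change −0.16 ± 0.135, adjusted p = 0.317). Per kilobase of exon its mean level was 1054 CPM in the ECs and 1087 CPM in the fibroblasts and the EC libraries lay within the fibroblast range. Lyz2, the lysozyme of macrophages, came next in the ECs at 7556 ± 678 CPM (SD, n = 3), against 888 ± 146 CPM in the fibroblasts. Thrombospondin (Thbs1, 6834 CPM) was also among the 10 highest of the ECs and rose by 1.58 ± 0.113. In the fibroblasts Col1a1, Col1a2 and Col3a1 were joined by Mgp, the matrix Gla protein, at 7473 ± 1216 CPM (SD, n = 3) against 188 ± 60.5 CPM in the ECs. Mgp thus fell to 2.52% of its fibroblast level, and its log2 change was −5.44 ± 0.254. Lox and Bgn, the lysyl oxidase and the proteoglycan biglycan, were among the 10 highest of the fibroblasts as well and fell by 2.42-fold and 3.70-fold in mean CPM.

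A list of 28 general endothelial genes had 27 members higher in the ECs, against the 29.3% of all genes given above, with a median log2 change of 5.69. Together they came to 5587, 5328 and 5973 CPM in the ECs and 249.7, 252 and 249.4 CPM in the fibroblasts. Beside the genes given above, Robo4, a receptor that steadies the vessel wall, read 137, 142 and 162 CPM against 0.169, 0.940 and 0.0885 CPM, and Icam2, an adhesion molecule of resting endothelium, 30.7, 28.1 and 26.9 CPM against 0.169, 0 and 0.133 CPM. Plvap, the diaphragm protein of caveolae and fenestrae, rose by 7.24 ± 0.250, Vwf, the von Willebrand factor gene, by 6.69 ± 0.171, and Cldn5, the endothelial claudin, by 6.92 ± 0.268. Eng and Cd34, which stromal cells also make, rose least among the called members, by 2.20 ± 0.0952 and 1.67 ± 0.0908. Flt1, the decoy-like VEGF receptor 1 gene, was the member without a call: it read 87.2, 75.8 and 75.8 CPM in the ECs and 61.3, 61.6 and 60.3 CPM in the fibroblasts (log2 change 0.27 ± 0.142, adjusted p = 0.118). The Flt1 levels did not overlap, but they differed far less than those of the other members.

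Promoter sequences are shown for 3 endothelial genes with large rises. ETS and SOX factors are known to act on endothelial promoters. Genes of both families changed in both directions here. Erg and Sox18 were among those that rose, while Spib (ETS) and Sox9 fell, with log2 changes of −5.39 and −1.95. The 3 were picked from the largest rises in the endothelial lists, and genes without a match to the cores below were passed over. That each of the 3 holds a core was thus fixed in advance. Each sequence covers the 250 bases before the start of transcription in RefSeq's GRCm38.p6, in the direction of the gene. Capitals mark the ETS core AGGAAG and the SOX core AACAAT on either strand (CTTCCT and ATTGTT on the other). The Emcn promoter lies at chr3:137340828-137341077 on the plus strand, the Tie1 promoter at chr4:118489850-118490099 on the minus strand and the Robo4 promoter at chr9:37401722-37401971 on the plus strand.
Emcn: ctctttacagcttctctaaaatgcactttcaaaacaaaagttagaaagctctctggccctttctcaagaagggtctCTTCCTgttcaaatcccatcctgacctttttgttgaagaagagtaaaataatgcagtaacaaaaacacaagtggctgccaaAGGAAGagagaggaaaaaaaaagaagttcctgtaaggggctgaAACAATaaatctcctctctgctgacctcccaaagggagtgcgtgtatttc
Tie1: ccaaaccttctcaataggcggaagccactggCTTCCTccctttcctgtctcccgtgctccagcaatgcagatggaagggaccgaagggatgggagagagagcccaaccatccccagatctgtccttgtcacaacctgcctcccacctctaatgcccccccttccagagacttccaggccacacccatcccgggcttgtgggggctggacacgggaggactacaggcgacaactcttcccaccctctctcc
Robo4: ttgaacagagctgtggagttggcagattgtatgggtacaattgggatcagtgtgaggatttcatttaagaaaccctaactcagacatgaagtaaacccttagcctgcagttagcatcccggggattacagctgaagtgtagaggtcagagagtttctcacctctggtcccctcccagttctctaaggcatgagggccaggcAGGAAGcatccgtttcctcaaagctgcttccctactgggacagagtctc
Emcn holds 2 ETS cores and 1 SOX core, and Tie1 and Robo4 hold 1 ETS core each. These 6-base words are common: the ETS core is in 29.5% and the SOX core in 9.42% of 32851 mouse promoters of this length. The general endothelial, endothelial transcription factor and endothelial junction lists had 47 promoters from 37 genes in the table. Of these, 34.0% (16) held the ETS core and 6.38% (3) the SOX core. The fibroblast and matrix lists, with 65 promoters from 52 genes, gave 29.2% (19) and 10.8% (7). A match is a description of the letters and not a binding site.

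Of 24 transcription factors of endothelium that were tested, 19 rose and 3 fell, with a median log2 change of 2.25. The SoxF genes Sox18, Sox17 and Sox7, which act together in vessel formation, rose by 8.08 ± 0.234, 6.69 ± 0.265 and 5.33 ± 0.220. Sox17, for example, read 14.1, 13.0 and 18.5 CPM in the ECs and 0.0563, 0.0940 and 0.221 CPM in the fibroblasts. Per kilobase of exon the mean EC levels were 24.7 CPM for Sox18, 13.1 for Sox7 and 3.19 for Sox17. Tal1, Lmo2, Lyl1 and Hhex, factors shared by blood and endothelial lineages, rose by 7.63 ± 0.422, 3.86 ± 0.179, 3.19 ± 0.363 and 4.98 ± 0.279. Among the ETS factors, Erg rose most, Fli1 rose by 3.68 ± 0.140 and Ets1 by 2.10 ± 0.114, while Ets2 and Elk3 rose by 0.64 and 0.92. The falls were Klf4, Klf2 and Foxc1. Klf2 and Klf4, which flow over endothelium induces, read 10.3, 10.6 and 16.0 CPM and 36.9, 33.6 and 62.8 CPM in the ECs and 33.6, 23.3 and 29.2 CPM and 119, 117 and 129 CPM in the fibroblasts. Both therefore stood lower in the ECs, with log2 changes of −1.34 ± 0.160 and −1.59 ± 0.157.

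Junction genes rose in 14 of 16 cases (median log2 change 1.38). The tight junction gene Ocln rose by 5.31 ± 0.422 and Rasip1, a regulator of endothelial lumens, by 5.48 ± 0.231. The widely used junction genes Tjp1, F11r and Cgnl1 rose less, by 1.32 ± 0.129, 1.40 ± 0.119 and 1.71 ± 0.120, and Ctnnd1, which binds cadherins, by 0.54 ± 0.111. Jam2 and Jam3, members of the junctional adhesion molecule family, fell by 1.70-fold and 1.44-fold in mean CPM. Classical cadherins and protocadherins rose in 11 of 14 cases, and in 7 when the 6 libraries were fitted alone. Cdh13 (T-cadherin), Cdh6 and Pcdh12 rose by 6.27 ± 0.158, 5.13 ± 0.185 and 6.76 ± 0.372. Cdh2 and Cdh11, the cadherins of mesenchymal cells, were also called higher in the ECs, by only 0.31 ± 0.0734 and 0.43 ± 0.142. Per kilobase of exon Cdh5 was the most abundant of these cadherins in the ECs (253 CPM), against 41.6 for Cdh2. In the fibroblasts Cdh2 (30.9) and Cdh11 (19.9) were above Cdh5 (0.739).

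Of 18 genes of the VEGF and angiopoietin systems 8 rose and 8 fell. Beside Kdr and Tie1, the angiopoietin receptor gene Tek rose by 4.93 ± 0.163, the VEGF-C receptor gene Flt4 by 3.72 ± 0.118 and Ptprb, the phosphatase that restrains Tek, by 5.90 ± 0.145. Per kilobase of exon the ECs held 37.7 CPM of Flt4, 9.22 of Kdr and 5.90 of Flt1. Flt4 was thus the most abundant VEGF receptor gene of these ECs. The ligand Angpt2, a context-dependent antagonist of Tek made by endothelium itself, read 1083, 1029 and 1001 CPM against 7.78, 10.6 and 9.51 CPM (log2 change 6.68 ± 0.167, adjusted p = 1.05e-15). Angpt1, the agonist made by stromal cells, went the other way, from 13.6, 19.7 and 15.7 CPM in the fibroblasts to 1.74, 2.69 and 1.95 CPM in the ECs (log2 change −3.05 ± 0.200). Placental growth factor, Pgf, rose by 4.19 ± 0.176. Of the other VEGF ligands, Vegfa, Vegfb and Vegfc were lower in the ECs by 1.25, 1.41 and 1.51 times in mean CPM. Vegfd, also lower, was among the called members of the list with the largest changes. Svep1, a matrix protein that binds angiopoietins and Tie1, changed by −6.36 ± 0.271, from 736 CPM in the fibroblasts to 9.73 CPM. The co-receptor genes split, with Nrp2 higher by 2.03 ± 0.129 and Nrp1 changed by −1.08 ± 0.188.

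Notch genes rose in 12 of 16 cases (median log2 change 2.38). The endothelial ligand Dll4 read 27.9, 34.2 and 32.8 CPM in the ECs and 0.225, 0.235 and 0.221 CPM in the fibroblasts (log2 change 6.97 ± 0.218, adjusted p = 1.30e-14). Jag1 and Jag2 rose by 2.40 ± 0.133 and 2.999 ± 0.369, the receptors Notch1 and Notch4 by 2.51 ± 0.112 and 3.77 ± 0.102. Mfng and Lfng, which glycosylate Notch receptors, rose by 6.28 ± 0.516 and 2.03 ± 0.282, and the feedback gene Nrarp by 6.11 ± 0.393. The target genes Hey1, Hey2 and Heyl also rose, but stood at only 2.49, 1.66 and 1.75 CPM in the ECs. Notch2 and Notch3 had log2 changes of −0.18 ± 0.130 and 0.29 ± 0.218 and were not called.

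**Figure D3:**
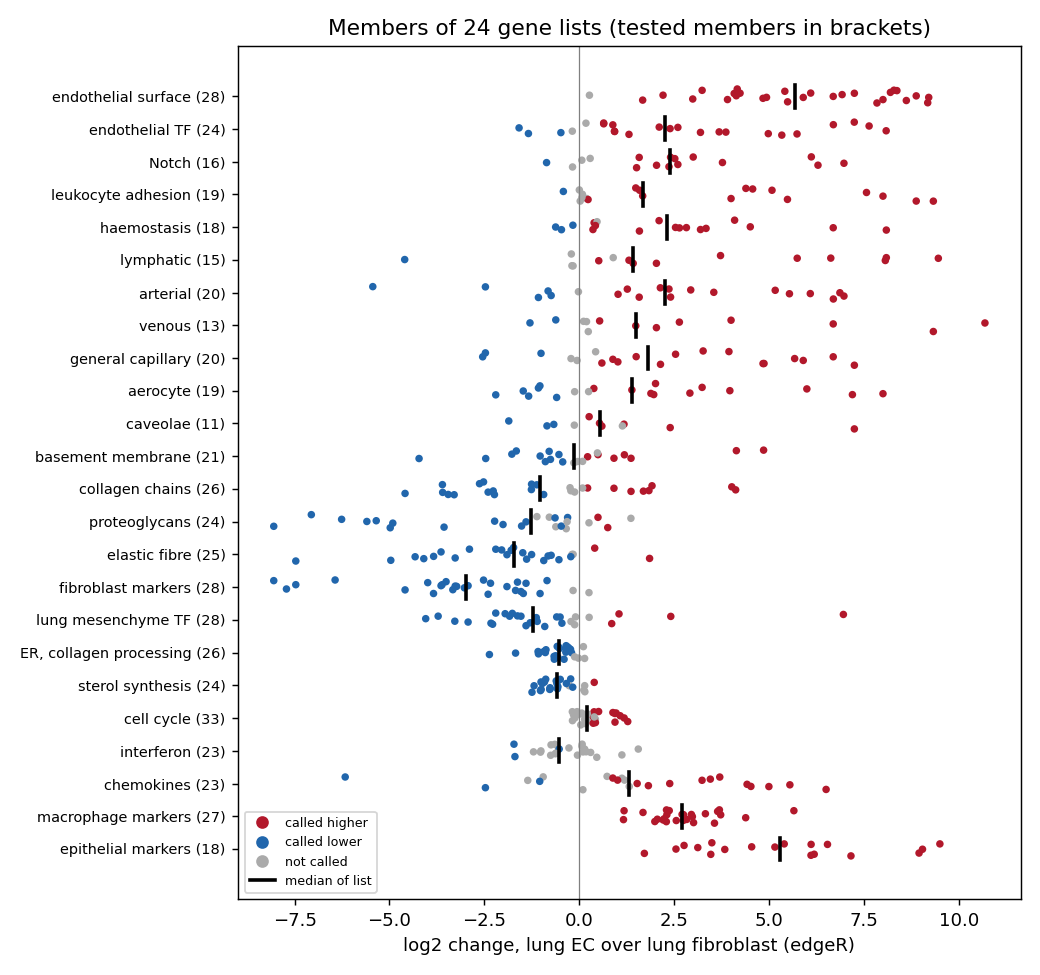
Log2 change of lung ECs against lung fibroblasts for the tested members of the gene lists, with 1 point per gene, red where called higher, blue where called lower and grey where not called, and a black bar at the median of each list. Endothelial lists lie mostly above 0 (median 5.69 for the general endothelial genes) and the fibroblast marker list below it (median −2.98).

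Markers of more than 1 vascular bed were present together. Of 20 arterial genes 14 rose and 5 fell, with a median log2 change of 2.25. Gja4 and Gja5, the arterial connexins, rose by 5.16 ± 0.275 and 3.54 ± 0.335 but stood at 7.14 and 5.79 CPM, while Cxcr4 and Efnb2 read 80.3 and 117 CPM in the ECs. The arterial genes that fell, Mgp, Cxcl12, Nrp1, Fbln5 and Fbln2, are made by fibroblasts as well, and their large counts put the summed level of the arterial list lower in the ECs (4563, 4569 and 5814 CPM) than in the fibroblasts (14935, 13010.02 and 13648 CPM). Venous genes rose in 8 of 13 cases (median 1.49). Selp and Vwf led these, with Bst1 at 2.63 ± 0.264 and Ackr1 at 3.996 ± 0.595, while the venous factor gene Nr2f2 fell by 2.27-fold in mean CPM. Ephb4, the venous receptor of ephrin-B2, rose by 0.53 ± 0.0715.

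Lymphatic genes rose in 10 of 15 cases (median log2 change 1.42). Prox1, the factor that sets lymphatic identity, read 45.0, 43.8 and 60.1 CPM against 0.225, 0.799 and 1.42 CPM (log2 change 5.74 ± 0.286, adjusted p = 1.38e-11). Lyve1, a hyaluronan receptor of lymphatics and of some macrophages, read 409, 405 and 475 CPM against 3.04, 4.18 and 4.69 CPM, and Mmrn1, multimerin, 595, 491 and 594 CPM against 1.52, 2.40 and 1.73 CPM. The ECs were above the fibroblasts in every library for these 3 genes, as for Reln and Flt4. Pdpn and Thy1, which fibroblasts also make, had log2 changes of −0.20 ± 0.165 and −0.16 ± 0.159 and were not called, and Ccl21a stood at only 0.722 CPM in the ECs. These levels are of the whole culture and do not say whether arterial, venous and lymphatic genes came from the same cells.

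The genes that divide lung capillary endothelium rose in part. General capillary genes rose in 14 and fell in 3 of 20 cases (median log2 change 1.82). Gpihbp1, which anchors lipoprotein lipase, rose by 5.67 ± 0.277 and Kit by 4.86 ± 0.199, but Aplnr, the apelin receptor, stood at 1.13, 1.35 and 0.973 CPM and Glp1r at 0.922, 1.26 and 0.973 CPM. Ly6c1, another general capillary gene, changed by −2.55 ± 0.153. Aerocyte genes rose in 11 and fell in 6 of 19 cases (median 1.38). Apln, the ligand of Aplnr, read 253, 237 and 295 CPM against 17.6, 14.8 and 13.8 CPM, and Ednrb, an endothelin receptor, 13.7, 11.9 and 23.1 CPM against 2.25, 5.21 and 3.80 CPM. Car4, the membrane carbonic anhydrase that marks aerocytes, was 76.3-fold higher (95% counting interval 25.8 to 373) and yet reached only 4.30, 5.76 and 0.926 CPM. Tbx2, Fibin, Prx and Emp2 were among the aerocyte genes that fell, with log2 changes of −2.20, −1.48, −1.33 and −1.04. Foxf1, a factor of both lung mesenchyme and lung endothelium, had a log2 change of −0.22 ± 0.140 and was not called, with 37.1, 38.4 and 27.6 CPM in the ECs and 37.2, 34.8 and 39.1 CPM in the fibroblasts.

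Genes of clotting and clot breakdown rose in 14 and fell in 3 of 18 cases (median log2 change 2.32). Plau, the urokinase that activates plasminogen, read 166, 161 and 145 CPM against 15.3, 15.7 and 16.6 CPM. Its receptor gene Plaur and the protein C receptor gene Procr rose by 2.53 ± 0.204 and 2.10 ± 0.170. Tfpi2, a protease inhibitor, rose by 3.34 ± 0.280. F3 (tissue factor), Thbd (thrombomodulin) and Tfpi were the 3 that fell, and their mean levels were 192, 145 and 124 CPM in the ECs and 273, 185 and 128 CPM in the fibroblasts.

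Genes of vessel tone changed in both directions, 11 up and 7 down of 22. The ligand gene Edn1 (endothelin) rose by 2.96 ± 0.0780 and its processing enzyme Ece1 by 1.92 ± 0.0925, and of its receptors Ednrb rose by 1.96 ± 0.252 and Ednra, the receptor of contractile cells, changed by −2.53 ± 0.240. Nos3, the endothelial nitric oxide synthase, rose by 4.16 ± 0.357 to 8.09, 9.38 and 9.77 CPM. Ptgs2 (inducible cyclooxygenase) rose by 3.98 ± 0.364, whereas Ptgs1 and the prostacyclin synthase gene Ptgis changed by −1.52 ± 0.214 and −1.53 ± 0.104. Ace, the angiotensin-converting enzyme that lung endothelium is known for, was lower in the ECs, at 142, 115 and 171 CPM, than in the fibroblasts, at 348, 513 and 460.2 CPM (log2 change −1.75 ± 0.125, adjusted p = 1.06e-09).

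Adhesion molecules for leukocytes rose in 13 of 19 cases (median log2 change 1.67). After Selp, Emcn and Icam2, Sele (E-selectin) rose by 7.56 ± 0.845, Cd200, an inhibitory ligand for myeloid cells, by 5.48 ± 0.315, Podxl by 5.07 ± 0.247 and Mcam by 4.56 ± 0.159. Icam1 rose by 1.49 ± 0.333, while Vcam1, at 796, 834 and 432 CPM against 609, 557 and 515 CPM, was not called (log2 change 0.19 ± 0.272, adjusted p = 0.579). Among the sphingosine 1-phosphate genes, the endothelial receptor S1pr1 rose by 4.23 ± 0.146 and the exporter Spns2 by 6.08 ± 0.244. The receptors S1pr2 and S1pr3 were the fibroblast side, with log2 changes of −0.79 ± 0.0855 and −3.05 ± 0.270.

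Axon guidance genes that also steer vessels rose in 16 and fell in 8 of 28 cases. Receptors of endothelium rose, with the semaphorin receptor gene Plxnd1 at 3.39 ± 0.134, as did the ligand Sema3g (6.08 ± 0.282), and Sema7a was 98.7-fold higher in mean CPM. The secreted ligands Slit2 and Slit3 changed by −2.40 ± 0.130 and −3.85 ± 0.155, and Slit3 read 784, 1241 and 1099 CPM in the fibroblasts. Ephb2 changed by −3.03 ± 0.207 and Epha2 by 2.24 ± 0.0842. Of 11 caveolar genes 6 rose, led by Plvap and Ehd4 (2.39 ± 0.0904), and 3 fell: Cavin1, Cavin2 and Cavin3, at −0.67 ± 0.117, −0.85 ± 0.194 and −1.86 ± 0.141. Cav1, the caveolin of both cell types, rose by 0.59 ± 0.152. Genes of fatty acid uptake rose in 8 and fell in 4 of 15 cases. Cd36, a fatty acid translocase of endothelium and macrophages, rose by 2.53 ± 0.220, and Meox2, a factor of capillary lipid transport, changed by −4.05 ± 0.227 while its relative Meox1 changed by 6.95 ± 0.331. Meox1 and Meox2 thus lay on opposite sides: Meox1 read 32.4, 33.8 and 27.1 CPM in the ECs, and Meox2 4.85, 6.15 and 4.69 CPM in the fibroblasts. Integrins rose in 10 and fell in 6 of 18 cases. Itgb3, of the vitronectin receptor, and the laminin receptor gene Itga6 rose by 4.94 ± 0.227 and 3.45 ± 0.0897, and Itga11, a collagen receptor of fibroblasts, changed by −2.69 ± 0.150.

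Of 28 fibroblast markers 26 fell, against the 28.7% of all genes given above, and the other 2, Thy1 and Dcn, were not called (median log2 change −2.98). Together they came to 39483, 46925 and 45056 CPM in the fibroblasts and 6649, 7266 and 8514 CPM in the ECs. The markers did not fall evenly. The mean EC level was 0.597% of the fibroblast mean for Mfap4 and 1.23% for Islr, a secreted protein of mesenchymal cells. It was 4.54% for Col3a1 and 13.3% for Pdgfra, and 18.9% for Col1a2, 21.5% for Pdgfrb and 41.5% for Lum, the proteoglycan lumican. Clec3b had no count in the ECs and was at least 26.2-fold lower, its fibroblast level being 0.732, 1.27 and 1.64 CPM.

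Collagen chain genes fell in 14 and rose in 8 of 26 cases (median log2 change −1.03). The fibrillar chains Col1a1, Col1a2, Col3a1, Col5a1 and Col5a2 fell, and so did the chains of type VI collagen, Col6a1, Col6a2 and Col6a3, with log2 changes of −3.30 ± 0.136, −3.45 ± 0.148 and −2.63 ± 0.292. Col14a1, a fibril-associated collagen, changed by −3.60 ± 0.327. Among the rises, Col18a1, the source of endostatin, rose by 1.36 ± 0.0752, Col4a3 and Col4a4 by 4.12 ± 0.292 and 1.91 ± 0.280, and the transmembrane collagen Col23a1 by 4.01 ± 0.174. Col4a2, a chain of all basement membranes, read 2557, 2707 and 3098 CPM against 2088, 2586 and 2574 CPM and was not called. Per kilobase of exon, Col4a1 (592 CPM) was above Col1a1 (447) in the ECs, and Col1a1 (2168) above Col4a1 (469) in the fibroblasts.

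Elastic fibre and microfibril genes fell in 21 of 25 cases (median log2 change −1.73). Eln (tropoelastin) read 148, 214 and 186 CPM in the fibroblasts and 4.71, 2.57 and 12.04 CPM in the ECs, a log2 change of −4.97 ± 0.651, adjusted p = 2.39e-05. Fbn2 and Mfap2 changed by −4.32 ± 0.423 and −4.10 ± 0.173, while Fbn1, the main fibrillin, read 749.9, 681 and 943 CPM against 1807, 2729 and 2702 CPM. Of the lysyl oxidases, which cross-link collagen and elastin, Loxl1 fell by 8.84-fold in mean CPM and Loxl2 rose by 0.40 ± 0.0851. Small proteoglycans and related genes fell in 15 of 24 cases (median −1.26). After Podn, Spock2, Ogn and Prelp changed by −5.60 ± 0.263, −5.35 ± 0.317 and −4.98 ± 0.139. Hspg2, the basement membrane proteoglycan perlecan, rose by 0.49 ± 0.164.

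Basement membrane genes fell in 10 and rose in 7 of 21 cases (47.6% and 33.3%; median log2 change −0.14). Sparcl1 (hevin) and Nid2 changed by −4.22 ± 0.372 and −2.47 ± 0.154. Laminin chains split, with Lama3 and Lamb3, chains of epithelial laminin, higher by 4.85 ± 0.264 and 4.14 ± 0.361, and Lamb2 lower, at −1.66 ± 0.110. Lama4, the chain of vessel basement membranes, read 421, 417 and 344 CPM against 336, 410.4 and 382 CPM and was not called. Proteases and their inhibitors fell in 15 and rose in 5 of 25 cases (median −1.22). After Adamts15, the procollagen proteinase gene Adamts2 and its enhancer Pcolce changed by −3.60 ± 0.127 and −3.84 ± 0.185, and Mmp3 by −3.56 ± 0.382. Mmp9, Mmp10 and Mmp13 rose by 4.15 ± 0.294, 3.05 ± 0.524 and 2.89 ± 0.679. Macrophages also make Mmp9, and the macrophage markers given further on were higher in the ECs. Their part in this result was not tested.

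The machinery that folds and modifies collagen in the endoplasmic reticulum fell in 22 of 26 cases, by small steps (median log2 change −0.53). The prolyl hydroxylase genes P4ha3, P3h3 and P4ha2 changed by −2.37 ± 0.172, −1.68 ± 0.0616 and −1.09 ± 0.127, and Serpinh1, the collagen chaperone, by −0.93 ± 0.0732. Of the 22, 2 were lower when measured against a log2 change of 1. Hspa5, the general chaperone of this compartment, had a log2 change of −0.023 ± 0.126 and was not called.

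Transcription factors of lung mesenchyme fell in 20 and rose in 4 of 28 cases (median log2 change −1.21). Osr1, an early mesenchymal factor, read 102, 104 and 97.2 CPM in the fibroblasts and 7.07, 5.09 and 13.0 CPM in the ECs. The log2 changes of Osr1 and of Prrx2 and Tcf21 were −3.72 ± 0.237, −3.28 ± 0.277 and −2.93 ± 0.168. Tbx4 and Tbx5, T-box factors of lung mesenchyme, changed by −1.76 ± 0.141 and −1.84 ± 0.241, and Twist1, Twist2 and Snai1 by −1.54, −2.33 and −1.40. Zeb1 and Zeb2, of the same group of mesenchymal factors, had log2 changes of −0.10 ± 0.101 and 0.26 ± 0.129 and were not called, with 72.0 and 194 CPM in the ECs. Runx1 rose by 1.04 ± 0.138.

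The listed Hox genes, which keep positional identity, fell in 13 and rose in 3 of 20 cases, with a split by cluster within the list. The called genes of the Hoxa and Hoxb clusters and Hoxc4 were lower, with Hoxa2 at −1.599 ± 0.360, Hoxb6 at −1.31 ± 0.297 and Hoxa5 at −1.11 ± 0.173. Hoxd4, Hoxd8 and Hoxd9 were higher. Hoxd8 read 18.2, 15.1 and 18.1 CPM in the ECs and 1.52, 1.13 and 0.664 CPM in the fibroblasts (log2 change 3.85 ± 0.224, adjusted p = 6.05e-11), and Hoxd9 13.9, 12.1 and 13.8 CPM against 0, 0.188 and 0.398 CPM. All called Hoxd members of the list were thus on the EC side and the falls were smaller than these rises. Outside the list, Hoxc13 was also called higher, at a mean of 1.63 CPM in the ECs and 0.280 CPM in the fibroblasts (log2 change 2.35).

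Genes that mark subtypes of lung fibroblast fell in 12 and rose in 7 of 21 cases. Among the falls were Scara5 at −5.60 ± 0.309, Limch1 at −3.49 ± 0.286 and Fgf10, a growth factor for epithelium, at −2.98 ± 0.283. Inmt had no count in the ECs and was at least 64.4-fold lower. Plin2, a lipid droplet coat, rose by 1.14 ± 0.0886, Lpl by 0.88 ± 0.233 and Wnt2 by 2.04 ± 0.352. Of 16 smooth muscle genes 6 rose (37.5%, against 29.3% of all genes), and 1 did against a log2 change of 1. Acta2 (alpha smooth muscle actin) read 757, 591 and 1089 CPM in the ECs and 585, 432 and 448 CPM in the fibroblasts (log2 change 0.61 ± 0.179, adjusted p = 0.00810), and Tagln rose by 0.97 ± 0.137. Mylk, the myosin light chain kinase, was lower in the ECs by 3.84-fold in mean CPM.

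In the PDGF system the ligand gene Pdgfb read 119, 128 and 109 CPM in the ECs and 0.282, 0.470 and 0.221 CPM in the fibroblasts (log2 change 8.38 ± 0.172, adjusted p = 5.62e-17). The gene of its receptor, Pdgfrb, was lower in the ECs than in the fibroblasts, at 107, 101 and 143 CPM against 455, 597 and 577 CPM. The EC libraries thus held transcript of both, and whether the same cells held both was not tested. The IGF binding protein genes Igfbp4, Igfbp5 and Igfbp6 changed by −3.12 ± 0.151, −4.86 ± 0.418 and −5.20 ± 0.325, and the epithelial growth factor gene Hgf by −2.45 ± 0.253. Over the PDGF, FGF and IGF list 16 of 27 fell and 7 rose (median −0.57).

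Wnt pathway genes fell in 16 and rose in 10 of 31 cases (median log2 change −0.69). The secreted inhibitor gene Sfrp1 changed by −4.57 ± 0.153, Dkk3 was 14.6-fold lower in mean CPM, and the receptors Fzd1 and Ror1 by −2.61 ± 0.0982 and −2.50 ± 0.222. Fzd6 and the ligand Wnt5a rose by 1.71 ± 0.136 and 1.34 ± 0.140. Hedgehog pathway genes fell in 7 of 11 cases, Gli2 and Gas1 by the most (−4.31 ± 0.274 and −3.99 ± 0.348), while the receptor gene Ptch1 rose by 1.595 ± 0.203. Retinoic acid genes fell in 10 of 14 cases. The synthesis enzyme gene Aldh1a1 and the reductase gene Dhrs3 changed by −2.99 ± 0.273 and −2.46 ± 0.150, and Rdh10 rose by 1.11 ± 0.147.

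Of 27 BMP pathway genes 10 rose (37.0%) and 8 fell (29.6%), shares near the 29.3% and 28.7% of all genes. The ligands Bmp4 and Bmp2 rose by 3.67 ± 0.113 and 4.91 ± 0.240, whereas Gdf10 and the extracellular regulator gene Bmper changed by −5.47 ± 0.605 and −1.81 ± 0.110. The receptor Acvrl1, which in vessels pairs with Eng, had a log2 change of 0.044 ± 0.0613 and was not called, at 116, 119.7 and 124 CPM in the ECs and 114, 104 and 104 CPM in the fibroblasts. Its target genes Id1 and Id3 were lower in the ECs (−0.64 ± 0.159 and −1.56 ± 0.0974). Of 20 TGF-beta genes 8 rose and 8 fell, 40.0% each way. The ligands Tgfb1 and Tgfb2 rose by 1.87 ± 0.118 and 2.35 ± 0.123, Tgfb3 changed by −0.72 ± 0.237, and Tgfbr3 and the latent binding protein genes Ltbp1 and Ltbp3 by −2.49 ± 0.117, −2.05 ± 0.187 and −1.69 ± 0.0893. The activin subunit gene Inhba rose by 2.44 ± 0.199.

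Of 33 cell cycle genes 13 were called higher (39.4%, against 29.3% of all genes), with a median log2 change of 0.21. Against a log2 change of 1 (glmTreat) none was called higher, and 2 were at an unadjusted p under 0.05. The replication genes Ccne2, Mcm5 and Cdc6 rose by 1.27 ± 0.245, 1.18 ± 0.136 and 1.08 ± 0.197, and Mki67 read 113, 94.1 and 118 CPM against 49.4, 51.2 and 52.2 CPM (log2 change 0.97 ± 0.139, adjusted p = 1.11e-05). The mitotic kinase genes Cdk1, Plk1 and Aurkb were not called, with log2 changes of 0.038 ± 0.122, −0.021 ± 0.136 and −0.12 ± 0.152. Of 18 p53 targets and inhibitors of cyclin-dependent kinases 8 rose (44.4%) and 5 fell (27.8%). Pmaip1, Gdf15 and Mdm2 rose by 2.19 ± 0.105, 1.88 ± 0.193 and 1.20 ± 0.0820, and Cdkn1b and Sesn1 changed by −1.62 ± 0.101 and −1.39 ± 0.234.

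Genes of sterol and fatty acid synthesis fell in 19 of 24 cases (median log2 change −0.60), and 1 of them against a log2 change of 1. Fdft1 and Cyp51, of cholesterol synthesis, changed by −1.19 ± 0.109 and −1.02 ± 0.141, and the desaturase gene Scd1 by −1.01 ± 0.108. Of 24 glycolysis and hypoxia genes 6 were called higher and 7 lower (29.2%), which is close to the shares of all genes. Pfkfb3, an activator of glycolysis in sprouting endothelium, rose by 1.23 ± 0.247, and Gpi1 changed by −0.92 ± 0.0743. Immediate early genes fell in 9 and rose in 5 of 18 cases. Fos and Egr1 changed by −2.31 ± 0.149 and −1.87 ± 0.101, and Atf3 and Fosl1 rose by 2.65 ± 0.403 and 1.75 ± 0.222. Of 16 genes of the YAP pathway 8 rose and 4 fell (median log2 change 0.31). Against a log2 change of 1, 3 of the 16 were called higher and 1 lower. The pathway's targets Ankrd1 and Ccn2 rose by 2.04 ± 0.122 and 1.86 ± 0.120. Tead3, another member of the list, changed by −2.23, from 61.3 CPM in the fibroblasts to 14.2 CPM in the ECs.

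Markers of macrophages were higher in the ECs. All 27 tested of 28 listed rose (median log2 change 2.71), and together they came to 17076, 17040.4 and 16000.04 CPM in EC replicates 1, 2 and 3 and 2607, 2253 and 2206 CPM in the fibroblasts. Lyz2, the highest of them, held much of this sum. Ptprc, the pan-leukocyte CD45, read 99.0, 78.5 and 75.3 CPM against 7.94, 12.3 and 9.87 CPM, and Adgre1 (F4/80) 409, 531 and 234 CPM against 33.2, 35.5 and 24.02 CPM. Marco and Chil3, markers of alveolar macrophages, read 1549.8, 1902 and 852 CPM and 3069, 2219.99 and 3591 CPM in the ECs, and 131, 94.4 and 78.9 CPM and 439, 369.6 and 411 CPM in the fibroblasts. The libraries of both groups thus held macrophage transcript, those of the ECs more. Which cells held it was not tested. Neutrophil markers rose in 2 of 4 tested cases and T and NK cell markers in 2 of 5 (29.3% of all genes rose), and none fell. The mean sums were 30.7 CPM in the ECs against 2.44 CPM in the fibroblasts for neutrophils, and 18.8 against 2.19 CPM for T and NK cells. Il7r and S100a8 read 10.6 and 20.4 CPM in the ECs. Of the same markers, Cd3d, Cd3e, Nkg7, Gzma, S100a9 and Ly6g had no count in any of the 6 libraries.

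Epithelial genes were also higher in the ECs. All 18 tested of 20 general epithelial markers rose (median 5.27), and their sum was 461, 399 and 494 CPM against 38.8, 30.2 and 37.3 CPM. Epcam read 19.5, 17.9 and 17.3 CPM against 0, 0.0470 and 0.265 CPM, Cdh1 (E-cadherin) 51.3, 43.5 and 49.9 CPM against 0.282, 0.517 and 1.06 CPM, and Krt8 108, 85.5 and 112 CPM against 13.4, 7.42 and 11.6 CPM. Esrp1, a splicing factor of epithelia, had no count in the fibroblasts and was at least 68.0-fold higher. Of the 18 alveolar markers only 9 passed the filter on low counts, and 3 of these rose and 1 fell (33.3% and 11.1%). The list summed to 310, 308 and 316 CPM in the ECs and 250, 273 and 271 CPM in the fibroblasts. The surfactant gene Sftpc was not among the 9. Sftpc read 0.358, 1.01 and 0.602 CPM in the ECs and 0, 0.235 and 0.0442 CPM in the fibroblasts, and the airway gene Scgb1a1 0, 0 and 0.139 CPM and 0.169, 0 and 0 CPM. Mesothelial genes fell in 9 of 13 cases: the uroplakin gene Upk3b changed by −1.79 ± 0.285, Wt1 by −0.98 ± 0.215, and Msln, at 136, 149 and 222 CPM against 132, 116 and 119 CPM, was not called. The part of macrophage and epithelial RNA in the differences between ECs and fibroblasts was not tested.

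**Figure D4:**
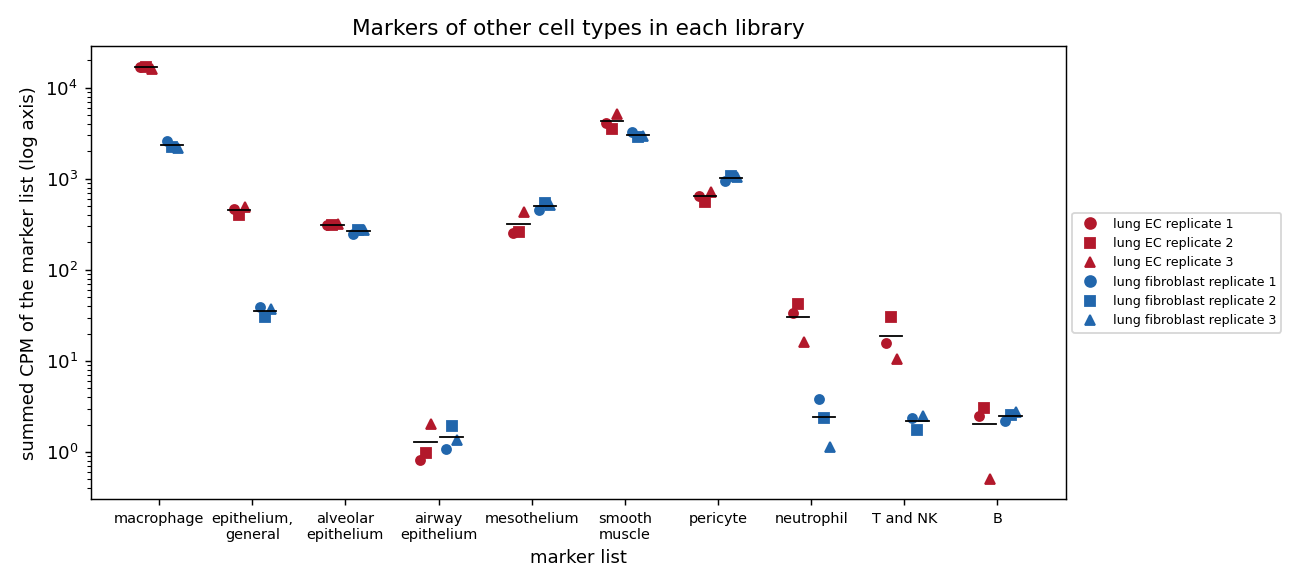
Summed level of marker lists of other cell types in each of the 6 libraries, in CPM on a log axis, with 1 symbol per library and a bar at the group mean. Macrophage markers stand between 16000 and 17076 CPM in the ECs and between 2206 and 2607 CPM in the fibroblasts, and general epithelial markers are also higher in each EC library than in any fibroblast library.

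Inflammatory genes rose beside these markers. Of 25 cytokine genes 14 rose and 6 fell (median log2 change 1.20). Csf3, the granulocyte growth factor, read 141, 195 and 14.3 CPM in the ECs and 1.35, 0.893 and 0.177 CPM in the fibroblasts. Il1a and Tnf, which macrophages make in quantity, read 203, 189 and 24.1 CPM and 84.9, 56.0 and 19.1 CPM in the ECs, and 6.37, 3.19 and 2.48 CPM and 2.31, 2.21 and 0.929 CPM in the fibroblasts. EC replicate 3 was the lowest of the ECs in each of these and still above every fibroblast library. Il6 rose by 3.16 ± 0.754 and the feedback inhibitor gene Tnfaip3 by 2.05 ± 0.547. Il6st and Il33, a receptor and an alarmin, changed by −2.46 ± 0.145 and −2.51 ± 0.273.

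Chemokine genes rose in 13 of 23 cases (median log2 change 1.31) and summed to 4082, 4443 and 1862 CPM in the ECs and 1278, 1109 and 929.6 CPM in the fibroblasts. EC replicate 3 again had the lowest sum of the ECs. Ccl3 and Ccl4, chemokines of myeloid cells, and Cxcl5 rose by 4.99 ± 0.947, 5.54 ± 1.41 and 4.52 ± 1.29, and Ccl2 by 2.38 ± 0.671. Cxcl12, the stromal ligand of Cxcr4, was lower in the ECs, at 111, 101 and 119 CPM against 535, 639 and 519 CPM (log2 change −2.47 ± 0.106), and its receptor gene Cxcr4 higher (5.53 ± 0.218).

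Complement and acute-phase genes rose in 9 and fell in 10 of 22 cases (40.9% and 45.5%). C1qa, C1qb and C1qc, made by macrophages, rose by 2.29 ± 0.213, 1.99 ± 0.213 and 2.25 ± 0.209, and are members of the macrophage list too. Saa3 and Lcn2 rose by 3.49 ± 1.02 and 3.54 ± 0.884. The complement genes of stromal cells fell: C4b, Serping1 and C1s1 changed by −5.57 ± 0.226, −4.46 ± 0.189 and −3.46 ± 0.145. Serpina3n, an acute-phase protease inhibitor among the 10 highest genes of the fibroblasts, read 5634, 6571 and 5609 CPM there and 78.4, 101 and 60.4 CPM in the ECs.

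Interferon-stimulated genes were mostly not called. Of 23 tested, 3 fell, and the other 20 did not pass the test (median log2 change −0.53). Without EC replicate 2, 6 fell, and with DESeq2 5 fell. Their sum was 4882, 5918 and 1599 CPM in EC replicates 1, 2 and 3 and 5901, 4644 and 4971 CPM in the fibroblasts. EC replicate 3 was thus below every other library, EC replicate 1 lay within the fibroblast range and EC replicate 2 just above it. Ifit3, for instance, read 534, 686 and 111 CPM in the ECs and 1021, 694 and 803 CPM in the fibroblasts (log2 change −1.01 ± 0.609, adjusted p = 0.174). The antigen presentation genes of MHC class I were likewise mostly not called, at 5052, 4910.1 and 2995 CPM against 5367, 4793 and 4605 CPM in sum. In class II, the cathepsin gene Ctss rose by 1.65 ± 0.107 and Cd74, the invariant chain, to only 2.30, 2.36 and 2.13 CPM in the ECs and 0.676, 0.329 and 0.354 CPM in the fibroblasts.

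**Figure D5:**
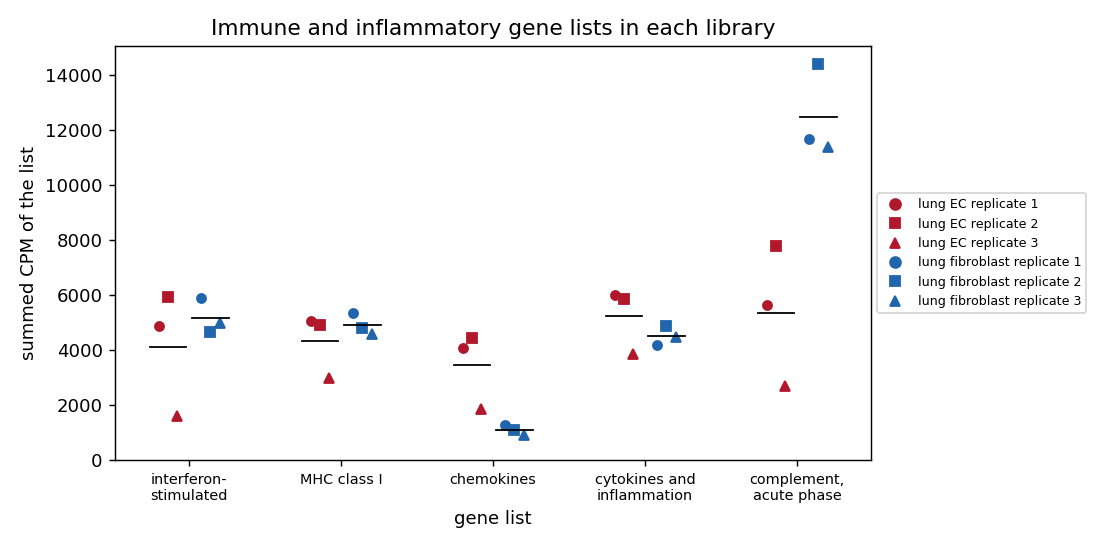
Summed level of the immune gene lists in each of the 6 libraries, in CPM on a linear axis, with 1 symbol per library and a bar at the group mean. In the interferon list EC replicate 3 (1599 CPM) lies below every other library, whereas chemokines are higher in each EC library than in any fibroblast library.

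Set beside the heart libraries of the series, the lung comparison was wider in the 6 genes compared. The difference between lung and heart in the log2 change of ECs against fibroblasts was tested in the same fit, in which 34.5% of all genes passed. Cdh5 read 448 ± 30.1 CPM in heart ECs and 67.2 ± 8.20 CPM in heart fibroblasts (SD, n = 3), against 1063 ± 8.92 and 3.11 ± 0.824 CPM in the lung. Its difference was 5.66 ± 0.181, adjusted p = 2.74e-13 (edgeR's quasi-likelihood test). Heart fibroblasts thus held more Cdh5 than lung fibroblasts. Col1a1 read 7985 ± 81.2 CPM in heart ECs and 7585 ± 436 CPM in heart fibroblasts, so that collagen separated the heart groups less than the lung groups. The difference for Col1a1 was −2.36 ± 0.161, adjusted p = 3.46e-09.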

How the data were processed

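The authors deposited 1 table of expected counts (estimated counts of reads per gene, all whole) for 18 libraries. The submitters' processing notes name Salmon, DESeq2 and mm10, and the way transcripts were summed to genes is not given in the sources used here. Of 35727 gene IDs, 35422 were matched to a symbol (GENCODE M21, GRCm38).

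Counts were fitted in R 4.3.3 with edgeR 4.0.16 over all 18 libraries, with 1 coefficient per group, filterByExpr (14864 genes, with 99.97% of the counts), TMM scaling and robust quasi-likelihood dispersion. The common biological coefficient of variation was 0.135, with 12 residual degrees of freedom. The SE is the absolute log2 change over the square root of its F statistic. CPM uses library totals, whereas log2 changes are on the TMM scale. Totals of 17747632 to 23775372 counts put 3 counts over a group at 0.0462 CPM in the ECs and 0.0487 CPM in the fibroblasts. Floors and counting intervals hold for counting error alone, and the labels name no molecular identifiers that would mark PCR copies. Exon lengths are of merged exons.

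The comparison and the 63 gene lists (1108 genes, 999 tested) were chosen with earlier results of these data known, so a list's count is not independent evidence of its direction. Named genes are the 12 largest changes per direction (called, at least 10 CPM in the higher group, no overlap, no clone or predicted names), the 10 highest per group, the defining markers and, per list, up to 4 called members of at least 5 CPM and 1 of the opposite direction. Other members are given as values. A few genes that this rule names are not reported here. Alternatives were RLE scaling, other filters, the 6 libraries alone, a replicate block, glmTreat, each library left out and DESeq2 1.42.0.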

Additional observations from a re-analysis of the deposited data

Results flagged for a closer look

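The change from fibroblasts to ECs differed between lung and heart in 6 marker genes, by the interaction term of the same fit (edgeR's quasi-likelihood test, 3 libraries per group). The 3 endothelial genes rose more in the lung. The difference of the log2 changes, lung minus heart, was 5.66 ± 0.181, adjusted p = 2.74e-13 for Cdh5, 5.49 ± 0.148, adjusted p = 3.91e-14 for Pecam1 and 5.61 ± 0.180, adjusted p = 2.74e-13 for Tie1. In heart fibroblasts Pecam1 stood at 42.3 ± 3.01 CPM and Tie1 at 20.4 ± 3.05 CPM, against 1.88 ± 0.329 and 0.590 ± 0.130 CPM in lung fibroblasts (SD, n = 3). The 3 fibroblast genes fell more in the lung. The difference was −2.36 ± 0.161, adjusted p = 3.46e-09 for Col1a1, −3.45 ± 0.260, adjusted p = 3.14e-08 for Col3a1 and −1.88 ± 0.198, adjusted p = 8.04e-07 for Pdgfra. Heart ECs held 3882 ± 218 CPM of Col3a1 and 434 ± 56.5 CPM of Pdgfra, against 461 ± 138 and 114 ± 10.3 CPM in lung ECs. The cause was not tested.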

How the results depend on the processing

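Measured against a log2 change of 1 (glmTreat), 1428 genes were higher in the ECs and 984 lower, against 4358 and 4271 in the main test; the setting asks for a larger change. Under that setting no member of the cell cycle list was called higher and none of the Hox list lower (2 and 1 at an unadjusted p under 0.05). Leaving out 1 library at a time gave 4035 to 4506 genes higher and 3874 to 4326 lower. With a replicate block 4290 rose and 4183 fell. The numbers do not pair the samples: the deviations of same-numbered EC and fibroblast libraries correlated at 0.0385, −0.0759 and 0.121. RLE scaling, DESeq2, the other filters and the 6 libraries alone kept both counts within 1.5 times, with 49.6% to 54.6% of the calls higher. RLE scaling kept 97.6% of the main calls, DESeq2 97.8% and the other filters 93.5% and 85.5%. The 6 libraries alone kept 78.9%, with 3388 genes higher and 3448 lower. Counts of list members moved by over 1.5 times in 122 of 1612 cases, 65 of them under glmTreat and 30 with a library left out. Under glmTreat the genes higher fell from 6 to 2 for caveolae, 6 to 1 for smooth muscle and 7 to 3 for sphingosine 1-phosphate, and those lower from 10 to 4 for basement membrane and 19 to 1 for sterol synthesis. The general endothelial and fibroblast marker counts stayed within 1.5 times under each of the 13 alternatives, and the organ differences kept direction and call under each alternative run for them. Over the named genes, 2971 log2 changes kept direction and side of the threshold, 65 lost the call and 2 gained it. The log2 change of Fn1, which was not called, was −0.16 and moved to 0.0039 without lung fibroblast replicate 2 (adjusted p = 0.985), and to −0.36 without lung fibroblast replicate 1, where it was called; the cause was not tested. Depth limits the folds of genes with few counts in a group.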

Other observations

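Genes near 0 in the fibroblasts and at 10 CPM or more in the ECs included families that no list had held. They were chosen after their values were seen and carry no test of the family. Of the Gimap genes, 5 were among them, which are GTPases known from lymphocytes and endothelium. Mean EC levels were 61.3 CPM for Gimap6, 23.9 for Gimap8, 16.7 for Gimap1, 16.0 for Gimap5 and 15.7 for Gimap4, and each fibroblast mean was under 0.5 CPM. Scn3a, a voltage-gated sodium channel gene, stood at 104 CPM, against 0.196 CPM in the fibroblasts. Stab2, a scavenger receptor of sinusoidal and lymphatic endothelium, read 14.1 CPM against 0.392, and the T-box factor gene Tbx1 15.7 CPM against 0.394. Il10, an anti-inflammatory cytokine of leukocytes, read 21.1 CPM against 0.0563, beside the macrophage markers, whose part was not tested. Of the 9 genes with the reverse pattern, Frmd5 and Adamts3, a procollagen protease, read 16.6 and 12.4 CPM in the fibroblasts and 0.302 and 0.278 CPM in the ECs.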
